A study of Homo sapiens with 5 samples.

Results

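Divergent promoters of coding genes are stretches in which the start sites of a minus-strand gene and a plus-strand gene lie back to back, so that transcription runs away from a shared upstream sequence on both sides. They were found in the GENCODE 44 annotation of GRCh38 from the outermost transcription start site (TSS) of every protein-coding gene on chromosomes 1 to 22 and X, without use of the binding data. A minus-strand and a plus-strand gene formed a pair when the minus TSS lay at most 1000 bp below the plus TSS, and the region of a pair ran from 500 bp below the lower TSS to 500 bp above the higher. This gave 887 pairs made of 1710 of 19970 coding genes (8.56%). The other 18260 coding genes were each given a window of 500 bp on either side of the TSS, so that 19147 coding promoter regions were scored in all. The pairs fell into 824 merged regions, 63 genes belonged to more than 1 pair, and 80 pairs held a readthrough gene, so pairs were not all independent of each other.

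Rb, the retinoblastoma protein, was profiled by CUT&RUN, in which an antibody tethers a nuclease to chromatin and the DNA it releases is sequenced. The cells were parental ZR-75-1, an established oestrogen receptor-positive breast cancer line grown in culture, which had received DMSO or 500 nM of the CDK4 and CDK6 inhibitor abemaciclib for 4 days. Each treatment had 2 Rb libraries, and 1 library made with an IgG2a antibody from DMSO-treated cells served as background. The peak lists held 1438 and 2582 Rb peaks in DMSO, 13960 and 12234 in abemaciclib, and 589 in IgG2a; they give no read totals, so the depth behind a peak is unknown and a region without a peak is one that missed the threshold, not one shown to lack Rb.

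Rb binds E2F transcription factors at promoters of genes for DNA replication and division and holds them in check until cyclin-dependent kinases phosphorylate it, so an inhibitor of CDK4 and CDK6 keeps Rb in its active form. Divergent coding promoters are usually rich in CpG dinucleotides, rarely carry a TATA box and are known for DNA repair, mitochondrial and housekeeping genes. A factor bound between a pair of start sites may act on both genes, and a peak over such a region cannot by itself be assigned to either.

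The sequence between both start sites is shown for 7 pairs known as divergent from textbook knowledge, because it is the piece of DNA the partners share and because these pairs cover the peak patterns the results turn on. All are GRCh38, plus strand, written 5′ to 3′, and lie upstream of every annotated transcript of both genes. Capitals mark matches to any of 8 patterns searched on both strands, which were TTNNCGC with C or G at each N for E2F, CCAAT for NF-Y, TTTGAA for the cell cycle homology region (CHR), CCGGAAGT for GABPA, GCGCATGC for NRF1, AAGATGGC for YY1, GGGCGG for SP1 and TGACGTCA for CREB. A match describes the letters and not a bound site.
UFD1/CDC45, chr22:19479203-19479456: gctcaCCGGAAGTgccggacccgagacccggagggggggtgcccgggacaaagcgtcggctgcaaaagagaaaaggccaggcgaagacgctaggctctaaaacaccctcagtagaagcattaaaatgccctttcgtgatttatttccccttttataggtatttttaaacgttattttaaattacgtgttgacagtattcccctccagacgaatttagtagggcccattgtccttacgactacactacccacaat
RECQL/GOLT1B, chr12:21501670-21501780: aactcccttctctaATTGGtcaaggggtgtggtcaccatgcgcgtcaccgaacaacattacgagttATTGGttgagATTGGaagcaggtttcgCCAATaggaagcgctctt
SARS2/MRPS12, chr19:38930764-38930943: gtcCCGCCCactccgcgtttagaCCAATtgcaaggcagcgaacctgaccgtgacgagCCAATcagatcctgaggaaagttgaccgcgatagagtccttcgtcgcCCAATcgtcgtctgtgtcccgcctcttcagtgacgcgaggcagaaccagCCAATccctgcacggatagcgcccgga
PPAT/PAICS, chr4:56435616-56435740: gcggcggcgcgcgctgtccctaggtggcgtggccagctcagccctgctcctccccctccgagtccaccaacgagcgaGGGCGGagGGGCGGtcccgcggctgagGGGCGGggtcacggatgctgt
TK1/AFMID, chr17:78187234-78187357: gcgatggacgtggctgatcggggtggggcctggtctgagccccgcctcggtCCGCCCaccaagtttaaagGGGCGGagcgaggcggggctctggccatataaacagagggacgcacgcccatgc
ORC1/PRPF38A, chr1:52404424-52404601: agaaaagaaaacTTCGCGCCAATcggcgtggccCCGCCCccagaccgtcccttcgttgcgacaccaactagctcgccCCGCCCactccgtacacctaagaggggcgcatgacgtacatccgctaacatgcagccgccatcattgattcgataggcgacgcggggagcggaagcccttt
TIPIN/MAP2K1, chr15:66386747-66386836: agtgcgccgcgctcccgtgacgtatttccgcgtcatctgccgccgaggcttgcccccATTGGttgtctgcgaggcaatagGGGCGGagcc

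UFD1/CDC45, RECQL/GOLT1B and SARS2/MRPS12 had an Rb peak in all 4 libraries. PPAT/PAICS and TK1/AFMID had one in DMSO replicate 2 and both abemaciclib libraries, and ORC1/PRPF38A and TIPIN/MAP2K1 had one in both abemaciclib libraries alone. At these pairs the summit lay between the start sites only at RECQL/GOLT1B and SARS2/MRPS12, in each case in DMSO replicate 1 alone. The DMSO replicate 2 peaks at UFD1/CDC45 and TK1/AFMID did not touch the stretch shown. In the ORC1/PRPF38A stretch the first capitals hold 2 overlapping E2F matches, one on each strand, that run into a CCAAT. RECQL/GOLT1B and SARS2/MRPS12 each hold 4 CCAAT matches, PPAT/PAICS holds 3 SP1 matches, and UFD1/CDC45 holds a single GABPA match in 254 bases.

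Whether treatment changed the number of pairs with Rb was addressed per library. Rb peaks overlapped 167 of 887 pairs in DMSO replicate 1 (18.8%, Wilson 95% interval 16.4% to 21.5%), where 5.84% of all coding promoter regions had a peak. DMSO replicate 2 had a peak at 225 pairs (25.4%, 22.6% to 28.3%), beside 9.34% of all regions. With abemaciclib, replicate 1 had a peak at 784 pairs (88.4%, 86.1% to 90.3%), beside 48.1% of all regions, and replicate 2 at 744 pairs (83.9%, 81.3% to 86.2%), beside 44.4%. Both abemaciclib libraries were above both DMSO libraries, with no overlap between the groups. No pair overlapped an IgG2a peak, and 0.0157% of all regions did. Only 84 of the 589 IgG2a peaks lay on the chromosomes scored, so few could overlap a region. Intervals cover counting error only.

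On average, 764 ± 28.3 pairs had a peak with abemaciclib and 196 ± 41.0 with DMSO (mean ± SD, n = 2 libraries each). The ratio was 3.90, and the ratios of single libraries ran from 3.31 to 4.69. The exact permutation test over the 4 libraries returned p = 0.333 (two-sided), which is the lowest value that 2 libraries against 2 can reach. The same comparison at promoters in no pair gave 5.21% and 8.57% with a peak in DMSO and 46.2% and 42.4% in abemaciclib. The excess of pairs over these promoters was 13.6 and 16.8 percentage points in DMSO and 42.2 and 41.4 in abemaciclib, a difference of 26.6 percentage points (exact permutation test, two-sided p = 0.333, the smallest possible). In CpG-rich windows alone, as defined further on, this difference was 7.77 percentage points (p = 0.333 by the same exact test), and with lists cut to equal length it was 0.868 (exact p = 0.667). Expressed as a ratio the order was the opposite, since pairs had a peak 3.62 and 2.96 times as often as other promoters in DMSO and 1.91 and 1.98 times in abemaciclib.

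**Figure D1:**
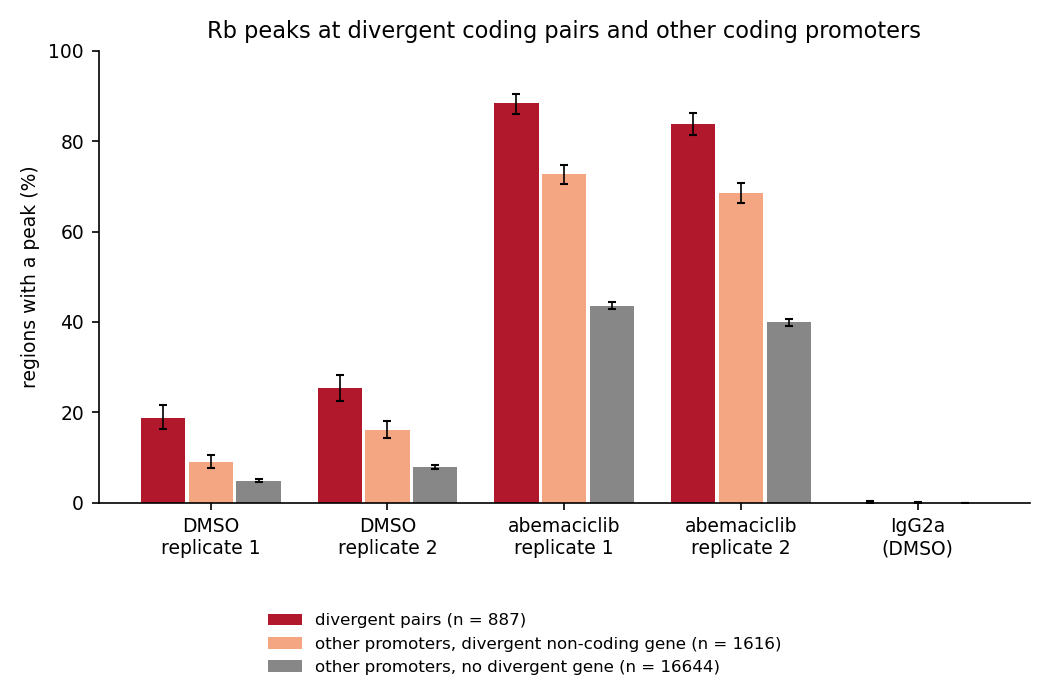
Share of regions with at least 1 bp of a peak (vertical axis, %) in each of the 5 libraries, for divergent coding pairs, for other coding promoters with a divergent non-coding gene and for other coding promoters with no divergent gene. Bars are shares and whiskers Wilson 95% intervals; the pairs reach 88.4% and 83.9% in abemaciclib and 18.8% and 25.4% in DMSO, above both kinds of other promoter in every Rb library, and no pair has an IgG2a peak.

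Part of the 18260 other promoters also faced a divergent gene, although not a coding one. A non-coding gene started divergently within 1000 bp of 1616 of them, and these had a peak in 72.6% and 68.6% of cases in abemaciclib replicates 1 and 2 compared with 9.03% and 16.2% in the DMSO libraries. The 16644 promoters with no divergent gene of any type stood at 43.6% and 39.9% in abemaciclib and 4.84% and 7.83% in DMSO. Coding promoters with a non-coding partner thus lay between those with none and the coding pairs in all 4 Rb libraries. These sets also differed in sequence. Median GC was 63.9% with a non-coding partner, 61.6% at pairs and 58.2% with no divergent gene. Median observed over expected CpG, explained further on, ranked the same way. CpG-rich promoters in no pair, also defined further on, had a peak in 76.6% and 71.5% of cases in abemaciclib. In DMSO they had one in 9.55% and 15.7%. Partner types were not compared at matched composition.

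Pairs were next sorted by the libraries in which they had a peak. The term gained is used for pairs where the 2 abemaciclib lists, and no DMSO list, held a peak, and shared for those where all 4 lists did. In total 474 pairs were gained (53.4%, 95% interval 50.1% to 56.7%), against 32.8% of all coding promoter regions and 31.7% of those in no pair. Another 132 pairs were shared (14.9%, 12.7% to 17.4%), against 4.78% of all regions and 4.29% of those in no pair. The pairs therefore exceeded other promoters by 21.7 percentage points among gained regions (Newcombe 95% interval 18.3 to 25.0) and by 10.6 among shared ones (8.38 to 13.1). No pair had DMSO peaks and no abemaciclib peak, and all 260 pairs with a peak in either DMSO library had one in both abemaciclib libraries. This was not particular to pairs. None of the 18260 other promoters had a peak in both DMSO libraries and no abemaciclib peak, and the abemaciclib lists were far longer. Of the rest, 93 had a peak in DMSO replicate 2 and both abemaciclib libraries, 35 in DMSO replicate 1 and both abemaciclib libraries, 50 in abemaciclib replicate 1 alone and 10 in abemaciclib replicate 2 alone. The last 93 pairs (10.5%) had no Rb peak, compared with 52.5% of other promoters.

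The gained class depended on how long the lists were. When each Rb list was cut to its strongest 1438 peaks, 2.48% of pairs were gained, 9.92% were shared and 8 pairs had a peak in both DMSO libraries and no abemaciclib one. The ratio of pairs with a peak, abemaciclib over DMSO, was then 1.11 in place of 3.90. Replicates differed more in DMSO, where 132 of the 260 pairs with any peak had it in both libraries, than in abemaciclib, where 734 of 794 did. Leaving out DMSO replicate 1 raised the shared class to 25.4% of pairs and leaving out DMSO replicate 2 raised it to 18.8%.

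The 10 gained pairs with the best ranks, by the −log10 p that the peak caller gave, were led by STMN3/RTEL1 on chromosome 20, which ranked 448 of 13960 in abemaciclib replicate 1 and 335 of 12234 in replicate 2. RTEL1 is a helicase that protects telomeres and STMN3 a microtubule-binding protein of neurons. The summit of this peak lay 772 bp above the STMN3 start in both libraries, inside RTEL1 and beyond the end of the region. M6PR/KLRG1, with the receptor that carries lysosomal enzymes and a lymphocyte receptor, ranked 463 and 733, with its summit 86 and 67 bp above the M6PR start and thus between both start sites. BAP1/PHF7 ranked 768 and 996; BAP1 is a deubiquitinase and tumour suppressor. The NSUN2/SRD5A1 pair, an RNA cytosine methyltransferase beside a steroid 5-alpha-reductase, ranked 1144 and 1217 under peaks 1692 and 1649 bp wide. The others were MEF2B/RFXANK and the overlapping readthrough pair BORCS8-MEF2B/RFXANK, MAP3K11/PCNX3, SLC7A6OS/PRMT7, PURG/WRN and FUZ/MED25. WRN is the helicase lost in Werner syndrome, PRMT7 an arginine methyltransferase and MED25 a Mediator subunit. Their ranks ran from 1059 to 1315 in replicate 1 and from 818 to 1202 in replicate 2.

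Shared pairs ranked far higher. TBC1D10B/MYL11 on chromosome 16 was at rank 25 and 123 of the DMSO lists (replicates 1 and 2) and at rank 21 and 9 of the abemaciclib lists. TBC1D10B is a GTPase-activating protein for Rab proteins and MYL11 a myosin light chain of fast muscle. SLBP/TACC3 ranked 81 and 45 in DMSO and 36 and 59 in abemaciclib. SLBP binds the stem-loop that ends histone mRNAs, TACC3 works at the mitotic spindle, and the summit lay between their start sites, from 182 to 208 bp above the SLBP start, in all 4 libraries. CBX5/HNRNPA1, a heterochromatin protein and a splicing regulator, ranked 191 and 161 in DMSO and 27 and 24 in abemaciclib, with every summit on the CBX5 side. SKA2/PRR11, whose minus-strand gene encodes a kinetochore protein, ranked 192 and 138 in DMSO and 50 and 30 in abemaciclib.

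Replication, repair and spindle genes were among the remaining best ranked shared pairs. PRKDC/MCM4 joins the DNA-dependent protein kinase to a subunit of the replicative helicase, and LIG1/ZSWIM9 holds DNA ligase 1. The PRKDC/MCM4 summit lay 635 to 682 bp above the PRKDC start in all 4 libraries, inside MCM4 and beyond the end of the region. NPAT/ATM pairs the coactivator of histone genes with the kinase that signals DNA breaks, LRRC57/HAUS2 holds a subunit of the augmin complex of the spindle and has an overlapping pair with an unnamed gene, and CCHCR1/TCF19 holds a gene described as growth-regulated. Across these, ranks ran from 67 to 230 in DMSO replicate 1 and from 29 to 110 in DMSO replicate 2, and from 103 to 268 and from 138 to 192 in abemaciclib replicates 1 and 2. Over all pairs of each class, the median rank percentile, where 0 is the strongest peak of the list, was 4.91 and 4.70 for the 132 shared pairs in abemaciclib replicates 1 and 2 and 42.2 and 49.4 for the 474 gained pairs. The 128 pairs with a peak in 1 DMSO library and both abemaciclib libraries lay in between, with medians of 13.1 and 14.4. Peaks over shared pairs were therefore among the strongest with abemaciclib, while gained pairs sat near the middle of each list.

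Within a list, peaks at pairs were also compared with other peaks. In abemaciclib, 20.1% (95% interval 17.4% to 23.1%) and 20.3% (17.5% to 23.5%) of the peaks touching a pair were in the strongest 10% of the list, against 12.6% and 11.9% of peaks at other coding promoters and 4.83% and 5.21% of peaks at neither. In DMSO the shares were 7.89% and 10.3% at pairs, 10.1% and 10.7% at other coding promoters and 10.3% and 8.77% elsewhere, with overlapping intervals. The fold enrichment assigned by the peak caller had a median of 15.7 at pairs and 13.3 at other coding promoters in abemaciclib replicate 1, and 14.5 and 12.0 in replicate 2. Median widths at pairs were 1062 and 1007 bp in abemaciclib replicates 1 and 2, compared with 894.5 and 828 bp at other coding promoters. DMSO peaks at pairs had median widths of 302.5 and 282.5 bp.

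**Figure D2:**
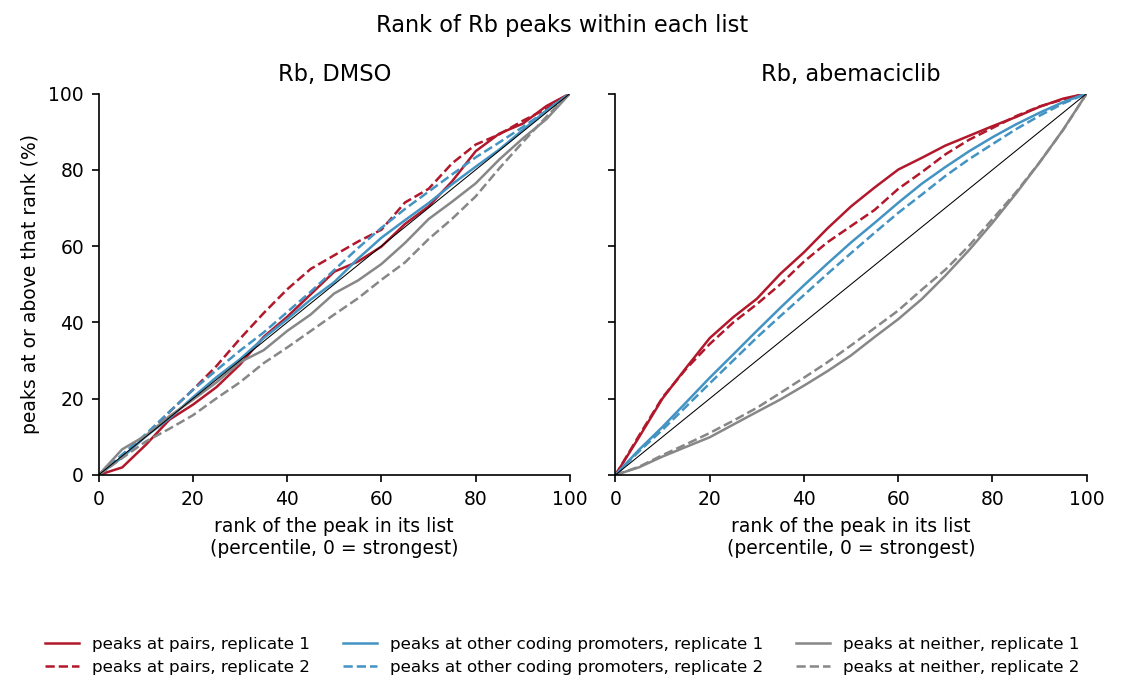
Cumulative share of peaks (vertical axis, %) at or above each rank percentile within its own list (horizontal axis, 0 is the strongest by −log10 p), for peaks at pairs, at other coding promoters and at neither; solid lines are replicate 1, dashed lines replicate 2, and the diagonal is an even spread. In abemaciclib the curves of pairs run above the others, reaching 20.1% and 20.3% at the first 10% of the list, while in DMSO the classes lie close together.

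Position within a pair was read from the summit of its strongest peak. In abemaciclib replicates 1 and 2 the summit lay between the start sites in 21.0% and 21.6% of pairs with a peak. It lay on the side of the minus-strand gene in 334 and 300 and on that of the plus-strand gene in 285 and 283. These side counts include 31 and 27 summits that lay outside the region. The stretch between the start sites made up 14.8% and 14.9% of the regions with a peak. In DMSO replicates 1 and 2 the summit lay between in 30.5% and 28.9% of pairs, where that stretch made up 17.5% and 16.3%. The median summit lay 105 and 122 bp inside the nearer gene in abemaciclib and 102 and 91 bp inside it in DMSO. At other promoters these medians were 100 and 101 bp in abemaciclib and 46 and 37 bp in DMSO, with summits upstream of the TSS in 33.9% and 34.9% and in 45.1% and 44.1%. Upstream distances are bounded at pairs by the spacing of the start sites and are not at other promoters. Taking the start of the canonical transcript of each gene in place of the outermost one raised the share between to 34.3% as a mean of both abemaciclib libraries, from 21.3%, so the share depends on which TSS is used.

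**Figure D3:**
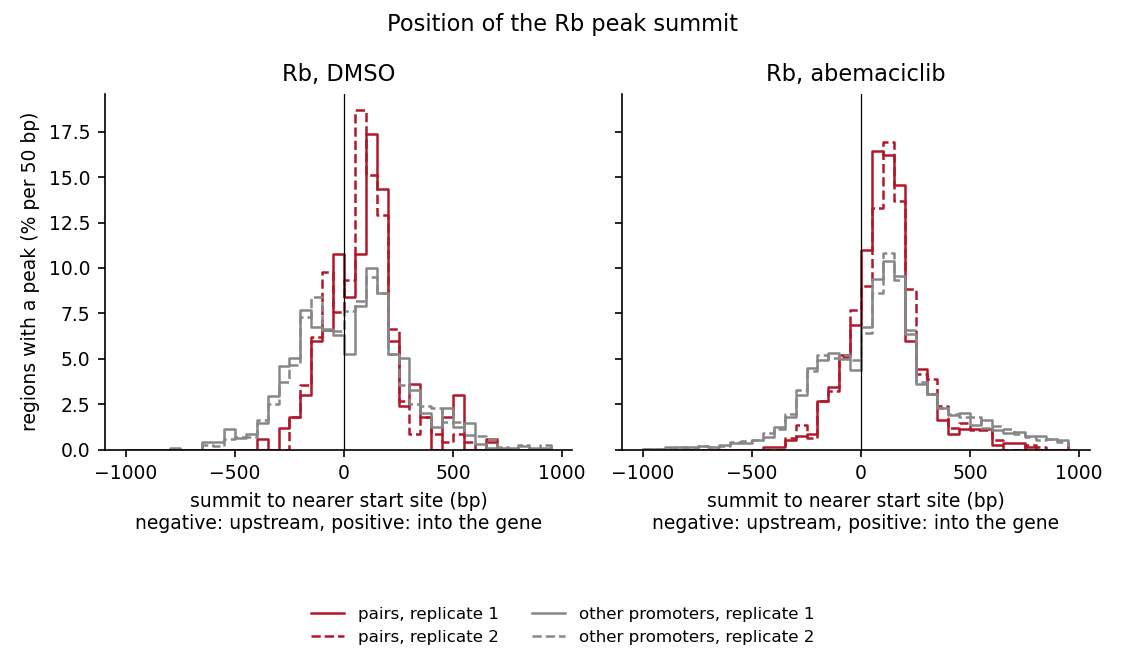
Distance from the summit to the nearer start site (horizontal axis, bp in 50-bp bins, negative upstream and positive into the gene) against the share of regions with a peak (vertical axis, %), for pairs and other promoters in DMSO and abemaciclib; solid lines are replicate 1 and dashed lines replicate 2. Summits at pairs gather just inside the nearer gene, with medians from 91 to 122 bp, and other promoters show a further mode upstream.

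Peak width set how far a peak told the partners of a pair apart. In abemaciclib, peaks spanned both start sites in 640 of 784 pairs (81.6%) in replicate 1 and 578 of 744 (77.7%) in replicate 2, and the median peak covered 80.2% and 77.4% of the region. In DMSO they spanned both in 23.4% and 28.0%. More than 1 peak was called over 0 and 16 pairs in DMSO and over 22 and 21 in abemaciclib. UFD1/CDC45 shows the difference, with a DMSO peak 701 and 493 bp wide whose summit lay 536 and 646 bp above the UFD1 start, inside CDC45, and an abemaciclib peak 2009 and 2580 bp wide. For the 132 shared pairs, summits of both abemaciclib libraries were a median of 32.5 bp apart and those of both DMSO libraries 76.5 bp apart. Between treatments the medians ran from 59 to 70.5 bp, no further than between the DMSO replicates.

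The start sites of a pair were 1 to 995 bp apart, with a median of 132 bp and quartiles of 69 and 248.5 bp. At a spacing under 100 bp, 57.3% of 337 pairs were gained and 10.7% (95% interval 7.82% to 14.4%) were shared. At 300 to under 500 bp, 40.0% of 95 pairs were gained and 29.5% (21.2% to 39.3%) were shared, and the intervals of the shared class did not overlap with those under 100 bp. The classes between stood at 12.2% shared for 100 to under 200 bp and 19.4% for 200 to under 300 bp, and pairs of 500 to 1000 bp fell back to 17.1% (10.3% to 27.1%, n = 76). The median spacing was 119.5 bp for gained, 197.5 bp for shared and 126 bp for pairs with no peak. Region width grows with spacing, since each region is the spacing plus flanks. At the closest spacing the summit was rarely between the start sites, in 2.36% and 3.68% of pairs in abemaciclib replicates 1 and 2, and at 300 to under 500 bp it was there in 56.8% and 47.5%. That stretch made up 5.33% and 5.36% of the region at the closest spacing and 27.4% and 27.5% at 300 to under 500 bp. Among the 10 best ranked shared pairs, TBC1D10B/MYL11, SKA2/PRR11, NPAT/ATM and SLBP/TACC3 were wide pairs of 440, 472, 406 and 514 bp. All the others among the 10 were under 100 bp. PRKDC/MCM4 stood at 7 bp, LRRC57/HAUS2 at 26 bp and its overlapping pair at 42 bp. CBX5/HNRNPA1, LIG1/ZSWIM9 and CCHCR1/TCF19 stood at 60, 77 and 93 bp.

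**Figure D4:**
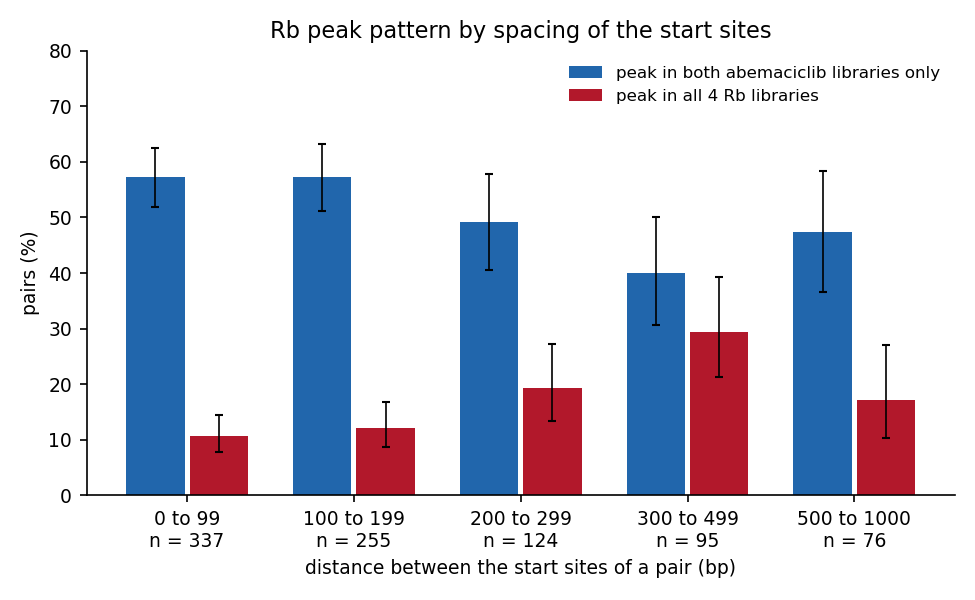
Share of pairs (vertical axis, %) with a peak in both abemaciclib libraries only and with a peak in all 4 Rb libraries, by distance between the start sites (horizontal axis, bp); whiskers are Wilson 95% intervals and n is the number of pairs. The share with a peak in all 4 is 10.7% under 100 bp and 29.5% at 300 to under 500 bp, and the share in abemaciclib only is 57.3% and 40.0%.

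Median sequence composition differed between pairs and other promoters before any binding was considered. Observed over expected CpG is 1 when CpG is as frequent as the C and G content allows. For a pair it was averaged over windows of 500 bp on either side of each start site. Its median was 0.777 for pairs and 0.668 in the windows of other promoters. In pairs without a peak it was 0.626. Windows were called CpG-rich with GC of at least 55% and an observed over expected CpG of at least 0.65, which held at both start sites of 592 pairs (66.7%) and at 8501 of the other promoters (46.6%). Among these, abemaciclib peaks were found at 95.6% and 91.6% of pairs and at 76.6% and 71.5% of other promoters. Gained shares were 58.4% and 52.7%, a difference of 5.78 percentage points (Newcombe 95% interval 1.63 to 9.83) in place of 21.7 over all sequences. Shared shares were 16.0% and 7.99%, a difference of 8.06 percentage points (5.26 to 11.3) in place of 10.6. Of the 295 pairs in which at least 1 start site was not CpG-rich, 43.4% were gained. Of the 9759 other promoters that were not CpG-rich, 13.5% were gained. These sets are not matched, since such a pair may still hold 1 CpG-rich start site. Region width moved the shares less. With windows of equal width around each gene 53.7% of the 1710 paired genes were gained and 14.4% were shared.

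**Figure D5:**
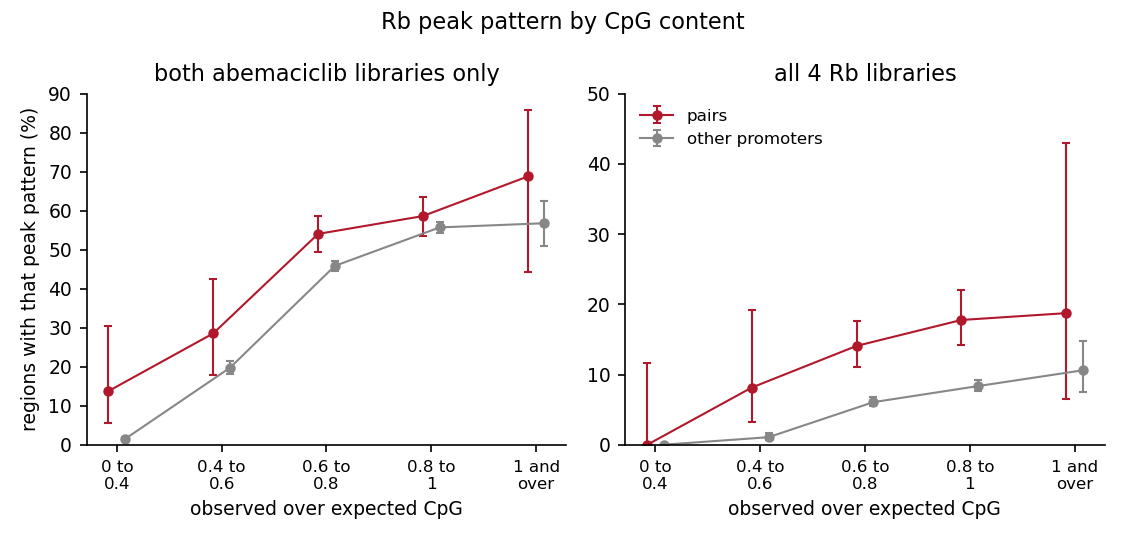
Share of regions (vertical axis, %) with a peak in both abemaciclib libraries only and in all 4 Rb libraries, by observed over expected CpG (horizontal axis), for pairs and other promoters; whiskers are Wilson 95% intervals. At 0.8 to 1 the abemaciclib-only shares are 58.6% for pairs and 55.7% for other promoters, and the shares in all 4 are 17.8% and 8.38%.

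The 8 patterns were counted in the 300 bp from 250 bp before to 50 bp after each TSS, a window that close partners largely share, so that 1 match can count for both genes. E2F letters were found at 23.6% of paired genes, at 14.4% of genes in no pair and at 15.2% of all coding genes. GABPA letters stood at 14.0% of paired genes and 4.28% of the others, beside 5.11% of all. NRF1 stood at 8.77% and 3.28% (3.75% of all), YY1 at 6.32% and 2.74% (3.04%), SP1 at 72.0% and 50.6% (52.4%), NF-Y at 40.9% and 35.5% (35.9%) and CREB at 4.15% and 2.11% (2.29%). CHR letters were the exception, at 8.13% of paired genes and 13.7% of the others (13.2%). When both sets were restricted to CpG-rich windows, E2F came to 25.8% and 22.6%, GABPA to 14.7% and 6.87%, NRF1 to 9.89% and 5.16%, NF-Y to 39.5% and 33.5% and CREB to 4.55% and 3.25%, and YY1 letters were at 72 of 1254 and 306 of 8501 genes. SP1 letters were then close, at 79.9% and 78.8%, and CHR letters stood at 6.14% and 7.40%.

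Within pairs, E2F and NF-Y letters went with peaks that were already present in DMSO. E2F stood at 39.1% of the genes of shared pairs, 20.4% of those of gained pairs and 14.4% of those of pairs with no peak, and NF-Y at 53.4%, 37.7% and 35.6%. Counted by pair, 23.0% (95% interval 18.4% to 28.5%) of the 265 pairs with an E2F match at either gene were shared, compared with 11.4% (9.15% to 14.2%) of the 622 without one. GABPA letters stood at 11.5% of the genes of shared pairs, 16.1% of those of gained pairs and 5.00% of those without a peak. By pair, 13.5% (8.80% to 20.1%) of those with a GABPA match and 15.1% (12.8% to 17.9%) of those without one were shared, with overlapping intervals. SP1 letters stood at 76.7%, 74.4% and 45.6%, so gained and shared pairs were close and pairs with no peak were lower. Of the pairs shown in full, RECQL/GOLT1B and SARS2/MRPS12 carried CCAAT repeats and were shared, while ORC1/PRPF38A carried both E2F and CCAAT letters and was gained. UFD1/CDC45 carried neither between its start sites and was shared, and TIPIN/MAP2K1 carried a CCAAT match and was gained.

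Genes were then grouped by function. A DNA replication list of 82 coding genes had 22 in pairs. Shared pairs were 40.9% of their 22 pairs, beside 14.9% of all pairs and 36.7% of the 60 replication promoters in no pair. In counts, 9 pairs were shared, 6 were gained, 5 had another pattern and 2 had no peak. The shared ones were TPRA1/MCM2, PRKDC/MCM4, RECQL4/LRRC14, TMEM258/FEN1, POLE/PXMP2, WDHD1/SOCS4, LIG1/ZSWIM9, PCNA/CDS2 and UFD1/CDC45. They carry subunits of the replicative helicase, the polymerase clamp, the leading-strand polymerase, the flap endonuclease and the ligase that joins lagging-strand fragments. POLE/PXMP2 ranked 403 and 295 in DMSO and 812 and 486 in abemaciclib. ORC1/PRPF38A, with the largest subunit of the origin recognition complex, ranked 2016 and 1864 in abemaciclib and had no DMSO peak, and TIPIN/MAP2K1, with a fork protection protein and the kinase MEK1, ranked 3514 and 4062. The pairs without a peak were PRSS54/GINS3 and ARRDC5/UHRF1, whose replication genes did have abemaciclib peaks in both replicates at the canonical TSS, 97391 and 6421 bp from the outermost one.

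DNA repair genes gave 33 pairs, of which 9 were shared, 13 were gained and 8 had another pattern. Shared pairs were 27.3% of them, and 19.5% of the 82 repair promoters in no pair were shared. XRCC3/ZFYVE21, with a recombination protein, ranked 129 and 352 in DMSO and 267 and 235 in abemaciclib, and its summit lay between the start sites in all 4 libraries, 9 to 74 bp above the XRCC3 start. RECQL/GOLT1B, a helicase gene beside a Golgi gene, ranked 472 and 459 in DMSO and 592 and 876 in abemaciclib. LIG4/ABHD13 and RAD51D/FNDC8 were among the repair pairs with no peak. At the canonical TSS, RAD51D had a peak in both abemaciclib lists and LIG4 in 1 of them. A mitosis and cell cycle list gave 28 pairs, with 13 shared, 13 gained, 2 of another pattern and none without a peak. Thus 46.4% of these pairs were shared, beside 20.5% of the 122 promoters of such genes in no pair. FOXM1/TULP3, with the transcription factor of mitotic genes, and C1orf109/CDCA8, with a chromosomal passenger protein, had the other pattern. CDCA3/USP5 ranked 558 and 419 in DMSO and 39 and 65 in abemaciclib. AURKA/CSTF1, a mitotic kinase beside a polyadenylation factor, ranked 393 and 1018 in DMSO and 1037 and 809 in abemaciclib.

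Taking replication, repair and mitosis together, 35.8% of 81 pairs with such a gene were shared and 39.5% were gained, whereas 12.8% of the 806 pairs without one were shared and 54.8% were gained. The same genes outside pairs also had a raised shared share, 23.9% of 264, compared with 4.00% of the 17996 other promoters in no pair.

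Well known divergent pairs were also read out, among them PPAT/PAICS and TK1/AFMID with genes of nucleotide synthesis. PPAT/PAICS encodes enzymes of purine synthesis on both sides, had no peak in DMSO replicate 1, and ranked 669 in DMSO replicate 2 and 1189 and 483 in abemaciclib. TK1/AFMID holds thymidine kinase 1, ranked 509 in DMSO replicate 2 and 1231 and 1122 in abemaciclib, and each summit lay on the TK1 side, 270 to 354 bp below its start. TMEM258/FEN1 ranked 660 and 133 in DMSO and 826 and 1089 in abemaciclib. MCM3AP/YBEY, with an mRNA export factor, was gained at ranks of 6103 and 4843. Of 30 pairs written down from textbook knowledge as divergent, 13 met the rule, most of them described here; SARS2/MRPS12 ranked 1423 and 1220 in DMSO and 1236 and 1899 in abemaciclib.

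Replication-dependent histone genes are themselves arranged in divergent pairs, and 27 of 69 such genes formed 15 pairs, of which 14 had histone genes on both sides. None had a DMSO peak. Abemaciclib peaks were found at 9 pairs in each library, 8 pairs were gained, 2 had a peak in a single abemaciclib library and 5 had none, namely H2AC1/H2BC1, H2BC4/H2AC6, H2AC7/H2BC7, H3C7/H2BC9 and the overlapping pair of H2BC7 with an unnamed gene. H2BC11/H2AC11 ranked 1715 and 1803, with its summit 68 and 65 bp above the H2BC11 start, and H2AC25/H2BC26 ranked 3703 and 3082. At H3C12/H2BC17 the summit lay 1493 and 1273 bp above the H3C12 start, outside the region. NPAT and SLBP, which act on the transcription and the mRNAs of these genes, lay in pairs that were shared. Gained pairs made up 53.3% of the histone pairs, beside 53.4% of all pairs, and pairs with no peak 33.3%, beside 10.5% of all. Of the 42 histone promoters outside pairs, 21.4% were gained, none was shared and 28 had no peak. Histone genes are near-identical copies, and the effect of that on read placement was not tested.

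Genes of mitochondria and ribosomes were set beside the 53.4% of all pairs that were gained. Promoters of such genes in no pair were often gained too, beside 31.7% of all promoters in no pair. They were gained in 47.7% of 65 cases for oxidative phosphorylation, 56.9% of 72 for the cytosolic ribosome and 52.5% of 61 for the mitochondrial ribosome. Oxidative phosphorylation genes gave 20 pairs, of which 15 were gained, 1 was shared, 1 had another pattern and 3 had no peak. The shared one, ATP5F1A/HAUS1, couples a subunit of ATP synthase to an augmin subunit and ranked 1101 and 127 in DMSO and 62 and 103 in abemaciclib. The other pattern was ZMAT5/UQCR10, with a DMSO peak in replicate 2. The pairs with no peak were NDUFA8/MORN5, ATP5MJ/TDRD9 and MAGT1/COX7B, and in the last 2 the minus-strand gene had a peak in both abemaciclib libraries at its canonical TSS. Cytosolic ribosomal protein genes gave 11 pairs, with 8 gained, RPL35/ARPC5L shared, BTK/RPL36A of another pattern and RPL12/LRSAM1 without a peak. Mitochondrial ribosome genes gave 18 pairs, with 9 gained and 3 shared. The shared ones were SARS2/MRPS12, with mitochondrial seryl-tRNA synthetase, and PSMA2/MRPL32 with its overlapping pair. PSMA2/MRPL32, a proteasome subunit beside a mitochondrial ribosomal protein, ranked 573 and 697 in DMSO and 1816 and 1129 in abemaciclib.

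Among the remaining lists, chaperone genes gave 13 pairs with 7 gained and 3 shared, the latter being ATPSCKMT/CCT5, PSPH/CCT6A and CORO7/DNAJA3. Proteasome genes gave 6 pairs with 4 gained, PSMA2/MRPL32 shared and PSMB1/TBP of another pattern. Zinc finger genes gave 30 pairs with 15 gained and 2 shared, ZNF214/NLRP14 and ZNF558/MBD3L1, and with C1orf232/ZNF593 and LYPD5/ZNF283 lacking a peak. The gained shares were 53.8% of the chaperone pairs, 66.7% of the proteasome pairs and 15 of the 30 zinc finger pairs, beside 53.4% of all pairs. Outside pairs, 44.2% of chaperone promoters, 21 of 42 proteasome promoters and 39.5% of zinc finger promoters were gained. Of 3 pairs with an aminoacyl-tRNA synthetase, LYRM4/FARS2 was gained, SARS2/MRPS12 was shared and RARS2/ORC3 had a peak in DMSO replicate 2 and both abemaciclib libraries. An oestrogen response list gave 11 pairs, all with a peak in both abemaciclib libraries, as had 734 of all 887 pairs. Of the 11, 7 were gained (63.6%, beside 53.4% of all pairs) and none was shared (beside 14.9% of all pairs). DHCR7/NADSYN1, with the last enzyme of cholesterol synthesis, had a peak in DMSO replicate 1, and ARL3/SFXN2, BAG1/CHMP5 and PEX11A/WDR93 had 1 in DMSO replicate 2. Outside pairs, 35.1% of 168 oestrogen response promoters were gained and 5.36% were shared.

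Pairs with no Rb peak in any library included GABRA4/GABRB1 with receptor subunits of neurons and OR11A1/OR2H1 with olfactory receptors, and also RPL12/LRSAM1 with a ribosomal protein, STYXL1/MDH2 with a mitochondrial malate dehydrogenase and POLR2L/TSPAN4 with an RNA polymerase subunit. These examples were chosen after their values were seen, and no theme was tested. The canonical TSS of their genes was looked up after the data were examined. Of the 93 pairs, 27 had a peak in at least 1 Rb library within 500 bp of a canonical TSS of either gene, and 66 had none at either kind of TSS. By canonical TSS, 556 of the 887 pairs were still pairs. RNA was not measured in these libraries, so whether either gene of a pair was transcribed is not known from them.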

How the data were processed

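Rb CUT&RUN peak lists were analysed for 2 Rb libraries per treatment and 1 IgG2a library, each grouped by its title. The authors used BBDuk to trim read pairs and Bowtie2 2.3.4.1 to align them to GRCh38, discarded mitochondrial and blacklisted reads, kept duplicates, and called peaks per library with MACS2 2.2.7.1 at q of 0.05 with an IgG control. The deposited columns are the fold enrichment at the summit, a ratio of pileup over local background, and the −log10 p and −log10 q that the authors' peak caller assigned; summit and coordinates are positions. These values depend on depth, which the lists do not give, so they were used to rank peaks within a list only. Longer lists overlap more pairs, so pair counts move with list length.

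Pairs, overlaps (at least 1 bp), composition and pattern matches were computed with Python 3.11.15, NumPy 2.4.6, SciPy 1.17.1 and pysam 0.24.0 and tested on simulated data. Peaks were compared by presence, since lists hold no counts over common regions. The study describes its CUT&RUN samples as biologically independent, while the labels do not tie a library to a culture or day, so p-values measure the spread between these libraries. The members, gene lists and named pairs were chosen with earlier results of these data known. Named were the 10 gained and 10 shared pairs with the best mean rank, textbook pairs that met the rule, and up to 3 pairs per gene list with the best abemaciclib ranks; other names fill counts of 5 or fewer, list the shared pairs of a gene list, or are said to be chosen afterwards. A textbook pair that the rule selects is not reported here. Alternatives varied the q-value, overlap, list length, TSS, spacing, widths, comparison set and libraries.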

Additional observations from a re-analysis of the deposited data

How the results depend on the processing

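Over 7 summary results and 103 alternatives, 74 values kept their direction and their side of the threshold or, where no test was run, stayed within their counting interval, 29 moved and none reversed. The treatment comparison, whose smallest p is 0.333, cannot pass a threshold, so its ratio of 3.90 and excess of 26.6 percentage points could only keep a direction. With lists of equal length they fell to 1.11 and 0.868 (exact permutation p = 0.667 for the excess), with q of at most 1e-05 the ratio was 6.51, with 200 bp of overlap 5.16, and in CpG-rich windows the excess was 7.77. With q of at most 1e-05, 59.6% of pairs were gained and 7.89% shared, the differences from other promoters were 28.1 and 5.78 percentage points, and the summit lay between the start sites in 21.8%. With at least 200 bp of overlap, 59.6% were gained and 10.6% shared, with differences of 27.3 and 7.60. With lists of equal length, 2.48% were gained and 9.92% shared, with differences of 1.37 and 6.93, and the summit lay between in 26.3%; fewer peaks were then counted by construction. With the canonical TSS, which gave 984 pairs, 17.6% were shared, with a difference of 13.3, and the summit lay between in 34.3%. A spacing of at most 500 bp gave 18.3% between, and requiring the summit inside the region gave 22.2%. In CpG-rich windows alone the differences were 5.78 for gained and 8.06 for shared pairs. Leaving out each library in turn gave 54.6% to 63.9% gained and 14.9% to 25.4% shared, and differences of 21.6 to 27.9 and 10.6 to 16.8 percentage points. Apart from what the construction of an alternative sets, the cause was not tested.

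No paired analysis was possible because presence of a peak was counted per list and no model was fitted, and nothing ties libraries with the same replicate number. Unknown depth limits every absence of a peak, and 2 libraries per treatment limit every comparison of treatments.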
